A study of Caenorhabditis elegans with 12 samples.

Results

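The 4 Y-box genes of Caenorhabditis elegans, cey-1 (WBGene00000472), cey-2 (WBGene00000473), cey-3 (WBGene00000474) and cey-4 (WBGene00000475), were followed as mRNAs through 12 RNA immunoprecipitation (IP) libraries. They were picked by identifier from the table of raw counts, which lists 20182 genes, and all 4 were found and passed the filter on low counts. The animals were whole young adults of 3 transgenic strains. The CEY1 strain carried rrrSi300, in which the cey-1 promoter drives a FLAG-tagged cey-1 coding region followed by the cey-1 3' UTR. The CEY2 strain carried rrrSi233, built the same way from cey-2, and the CEY4 strain carried rrrSi307, in which the dpy-30 promoter drives FLAG-tagged cey-4 with the cey-4 3' UTR. All transgenes go on through an operon linker to a PEST-tagged GFP-histone H2B reporter with the tbb-2 3' UTR, and all bear the unc-119(+) marker and are placed on chromosome I. FLAG IPs were made from each strain, with MYC IPs from the same strain as controls, and each of the 6 groups holds 2 libraries. No strain tags CEY-3. The labels do not say whether the native cey genes are intact, so a count for cey-1, cey-2 or cey-4 in its own strain sums whatever the native gene and the transgene give.

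Y-box proteins bind RNA through a cold-shock domain and package mRNAs into cytoplasmic particles, where they affect translation and stability. In C. elegans, cey-1 and cey-4 are known to be expressed broadly in body and germline, whereas cey-2 and cey-3 are known as germline genes that encode closely related proteins. In the RefSeq annotation of WBcel235, cey-2 and cey-3 lie on the same chromosome with 9 protein-coding genes between them. How reads shared by such related genes were counted is not given in the sources used here, so cey-2 and cey-3 values carry that uncertainty.

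FLAG libraries held 22915137 to 33529549 counts and MYC libraries 3353523 to 12802412. The members were well covered, from 1099 counts (cey-3, CEY2 MYC replicate 2) to 102766 counts (cey-4, CEY4 FLAG replicate 1). Levels are given as CPM, the usual depth-normalised count, after TMM scaling, a trimmed mean of log ratios that assumes most genes do not differ between libraries. FLAG against MYC values depend on that choice: scaling by total counts shifts the median log2 fold change of all genes by −1.49 in CEY1, −1.71 in CEY2 and −1.41 in CEY4. For this reason, the ratios of cey genes within a library, which no scaling touches, come first. In whole animals, fewer cells of a type and less RNA per cell cannot be told apart.

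Each FLAG IP changed the make-up of the Y-box mRNAs in favour of the one whose protein was tagged. In the CEY1 strain, cey-1 took 67.1% (95% Wilson interval 66.7 to 67.4) and 65% (64.6 to 65.5) of the summed cey-1 to cey-4 counts in the FLAG libraries, against 15.4% (14.8 to 16.1) and 14.3% (13.8 to 14.8) in the MYC libraries. In the CEY2 strain, cey-2 took 60% and 59.1% in the FLAG libraries, against 28.6% and 25.7% in the MYC libraries. In the CEY4 strain, cey-4 took 78.9% and 78.6% in the FLAG libraries, against 37.7% and 37.9% in the MYC libraries. In every strain both FLAG libraries lay above both MYC libraries. These intervals cover counting error only, since PCR reads are not independent molecules.

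**Figure D1:**
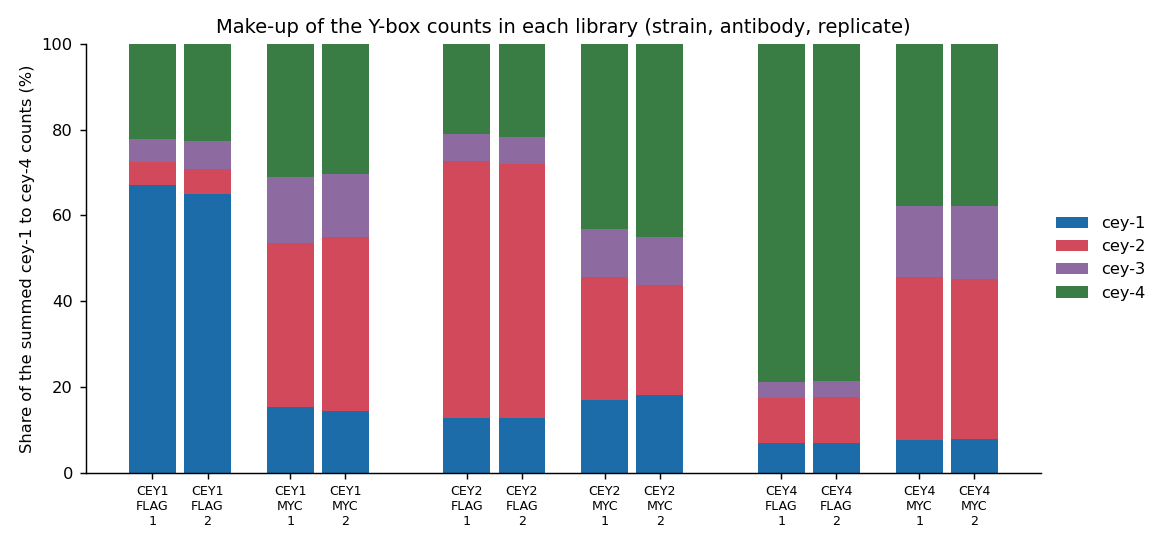
Share of each gene in the summed cey-1 to cey-4 counts (%, y axis) in each of the 12 libraries, FLAG left of MYC within a strain. Counts are not corrected for gene length, so a colour is to be followed across bars; the tagged gene fills 59.1% to 78.9% of each FLAG bar.

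The other members gave way in these shares to different extents. The shares of a library add up to the whole, so a larger share of the tagged gene leaves less for the others. In CEY1, cey-2 averaged 5.68% ± 0.36 in FLAG libraries and 39.4% ± 1.8 in MYC libraries (SD, n = 2 each), while cey-4 averaged 22.3% ± 0.35 in FLAG libraries and 30.8% ± 0.46 in MYC libraries. In CEY2, cey-1 averaged 12.7% ± 0.056 in FLAG libraries and 17.6% ± 0.79 in MYC libraries, while cey-4 averaged 21.4% ± 0.55 in FLAG libraries and 44.1% ± 1.4 in MYC libraries. In CEY4, cey-2 averaged 10.5% ± 0.15 in FLAG libraries and 37.6% ± 0.48 in MYC libraries, while cey-1 averaged 6.96% ± 0.054 in FLAG libraries and 7.78% ± 0.19 in MYC libraries. The untagged cey-3 had a smaller share in FLAG than in MYC libraries of every strain. It averaged 5.94% ± 0.72 in CEY1 FLAG and 15% ± 0.57 in CEY1 MYC libraries, 6.29% ± 0.039 in CEY2 FLAG and 11.2% ± 0.16 in CEY2 MYC libraries, and 3.78% ± 0.025 in CEY4 FLAG and 16.8% ± 0.19 in CEY4 MYC libraries.

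As a part of all counts, the 4 genes together made up 0.23% and 0.219% of the CEY1 FLAG libraries, against 0.268% and 0.286% of the CEY1 MYC libraries. In CEY2 the sum was 0.326% and 0.323% in FLAG libraries, against 0.288% and 0.295% in MYC libraries. In CEY4 it was 0.436% and 0.43% in FLAG libraries, against 0.273% and 0.271% in MYC libraries. On this unscaled measure the sum was therefore lower with FLAG in CEY1 and higher in CEY2 and CEY4, with no overlap between the antibodies. On the TMM scale the CEY1 sum was turned round, at 4192 and 3934 CPM in FLAG libraries, against 1765 and 1808 CPM in MYC libraries.

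Ratios of 2 cey mRNAs within a library showed that the untagged members also moved against each other. The cey-1 to cey-2 log2 count ratio was 3.54 ± 0.12 in CEY1 FLAG libraries and −1.41 ± 0.14 in CEY1 MYC libraries, a difference of 4.95 (4.76 to 5.13 over the 4 pairings of a FLAG with a MYC library), or 30.9-fold. Among members not tagged in a strain, the widest shift was that of cey-2 over cey-4 in CEY1, with a log2 ratio of −1.98 ± 0.07 in FLAG and 0.36 ± 0.09 in MYC libraries, a difference of −2.33 (−2.44 to −2.22). In CEY1, cey-2 over cey-3 also differed, by −1.46 (−1.60 to −1.31). In CEY4, cey-1 over cey-3 had a log2 ratio of 0.88 ± 0.02 in FLAG and −1.11 ± 0.02 in MYC libraries, a difference of 1.99. The cey-1 over cey-2 ratio in CEY4 differed by 1.67 (1.63 to 1.72), and cey-2 over cey-3 by 0.32 (0.27 to 0.36). In CEY2 the differences among untagged members were 0.58 (0.54 to 0.61) for cey-1 over cey-4, 0.37 (0.31 to 0.43) for cey-1 over cey-3 and 0.21 (0.14 to 0.27) for cey-3 over cey-4. No interval over the 4 pairings reached 0 in any of the 18 combinations of gene pair and strain. With 2 libraries against 2, an exact permutation test cannot reach a small p, and none is given.

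**Figure D2:**
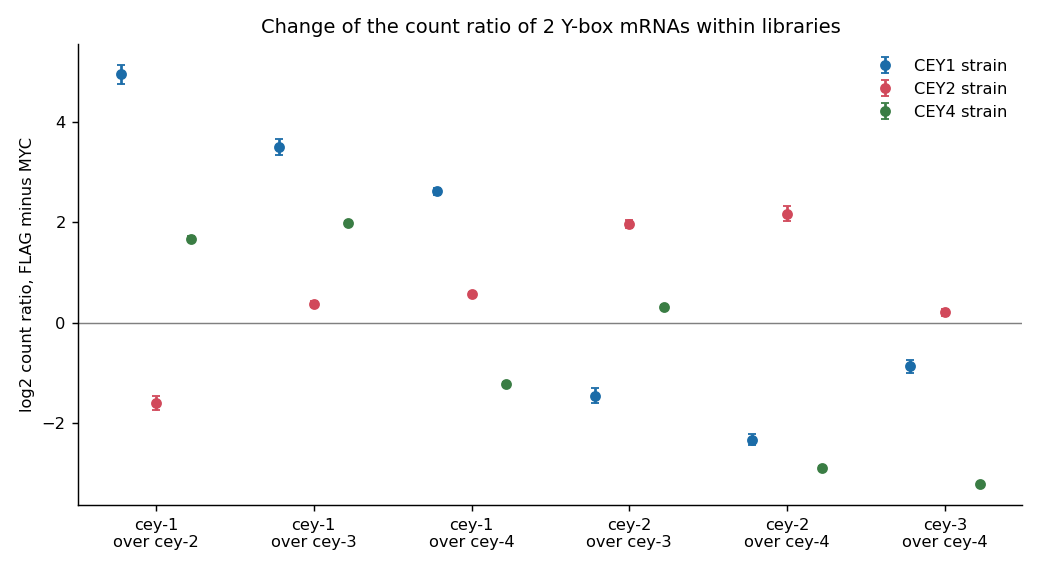
Difference between FLAG and MYC libraries in the log2 count ratio of 2 Y-box mRNAs (y axis), for each pair of genes and each strain. Points are differences of group means and bars run from the lowest to the highest of the 4 FLAG and MYC pairings; the widest difference is 4.95, for cey-1 over cey-2 in the CEY1 strain.

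The cey-1 mRNA, which codes for a broadly expressed Y-box protein, was highest in the FLAG IP of its own strain. It stood at 2811 and 2559 CPM in CEY1 FLAG libraries, 650 and 645 CPM in CEY2 FLAG libraries and 528 and 531 CPM in CEY4 FLAG libraries. In MYC libraries it stood at 272 and 259 CPM in CEY1, 232 and 252 CPM in CEY2, and 139 and 141 CPM in CEY4. All FLAG libraries lay above all MYC libraries on this scale, and no neighbouring groups in the order of levels overlapped. As an unscaled part of all counts, cey-1 made up 0.154% and 0.143% in CEY1 FLAG and 0.0414% and 0.041% in CEY1 MYC libraries, but 0.0415% and 0.0413% in CEY2 FLAG and 0.0489% and 0.0536% in CEY2 MYC libraries. The TMM-scaled log2 fold change of FLAG over MYC was 1.42 ± 0.06 (SE) in CEY2, and it was −0.31 with total-count scaling. In CEY4 the corresponding value was 1.92 ± 0.06, and it was 0.51 with total-count scaling.

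The cey-2 mRNA, a germline member of the family, was highest in CEY2 FLAG libraries. It stood at 227 and 233 CPM in CEY1 FLAG libraries, 3070 and 2982 CPM in CEY2 FLAG libraries and 796 and 807 CPM in CEY4 FLAG libraries. In MYC libraries it stood at 673 and 736 CPM in CEY1, 391 and 357 CPM in CEY2, and 689 and 662 CPM in CEY4. The order ran from CEY2 FLAG through CEY4 FLAG, CEY1 MYC, CEY4 MYC and CEY2 MYC to CEY1 FLAG, and only CEY1 MYC and CEY4 MYC overlapped. The CEY1 FLAG libraries thus held the lowest cey-2 levels of the series. The fold change there was 0.327 (log2 −1.61 ± 0.06), and the log2 value was −3.10 with total-count scaling. With CEY4 the log2 fold change was 0.25 ± 0.05, but −1.17 with total-count scaling.

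The cey-3 mRNA, whose protein was tagged in no strain, stayed within 2.07-fold between group means on the TMM scale. It stood at 228 and 254 CPM in CEY1 FLAG libraries, 320 and 319 CPM in CEY2 FLAG libraries and 290 and 286 CPM in CEY4 FLAG libraries. In MYC libraries it stood at 271 and 263 CPM in CEY1, 155 and 154 CPM in CEY2, and 303 and 302 CPM in CEY4. The FLAG libraries were above the MYC libraries in CEY2 and below them in CEY1 and CEY4, without overlap within a strain. In CPM without TMM scaling, cey-3 was lower in FLAG than in MYC libraries of every strain, at 125 and 141 CPM in CEY1 FLAG, 204 and 204 CPM in CEY2 FLAG and 166 and 162 CPM in CEY4 FLAG, against 412 and 416 CPM in CEY1 MYC, 326 and 328 CPM in CEY2 MYC and 457 and 460 CPM in CEY4 MYC libraries. On the TMM scale the log2 fold change was 1.05 ± 0.06 in CEY2, and it was −0.68 with total-count scaling. In CEY4 it was −0.07 ± 0.06 with an adjusted p of 0.264 and an interval of −0.18 to 0.04. In CEY1 it was −0.15 ± 0.06. With total-count scaling it was −1.64 in CEY1 and −1.49 in CEY4, both called lower (adjusted p = 8.31e-27 and 4.93e-26). On the TMM scale the CEY1 call was lost without CEY1 FLAG replicate 1 (−0.07), without CEY1 MYC replicate 1 (−0.12) or with no filter on low counts (−0.12).

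The cey-4 mRNA, from the other broadly expressed member, was highest in CEY4 FLAG libraries. It stood at 925 and 888 CPM in CEY1 FLAG libraries, 1077 and 1101 CPM in CEY2 FLAG libraries and 6019 and 5966 CPM in CEY4 FLAG libraries. In MYC libraries it stood at 549 and 551 CPM in CEY1, 588 and 625 CPM in CEY2, and 686 and 674 CPM in CEY4. All FLAG libraries lay above all MYC libraries on this scale, and no neighbouring groups overlapped. The log2 fold changes were 0.72 ± 0.05 in CEY1 and 0.84 ± 0.05 in CEY2 on the TMM scale. They were 0.72 and 0.5 with median-ratio (RLE) scaling, but −0.77 and −0.89 with total-count scaling.

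**Figure D3:**
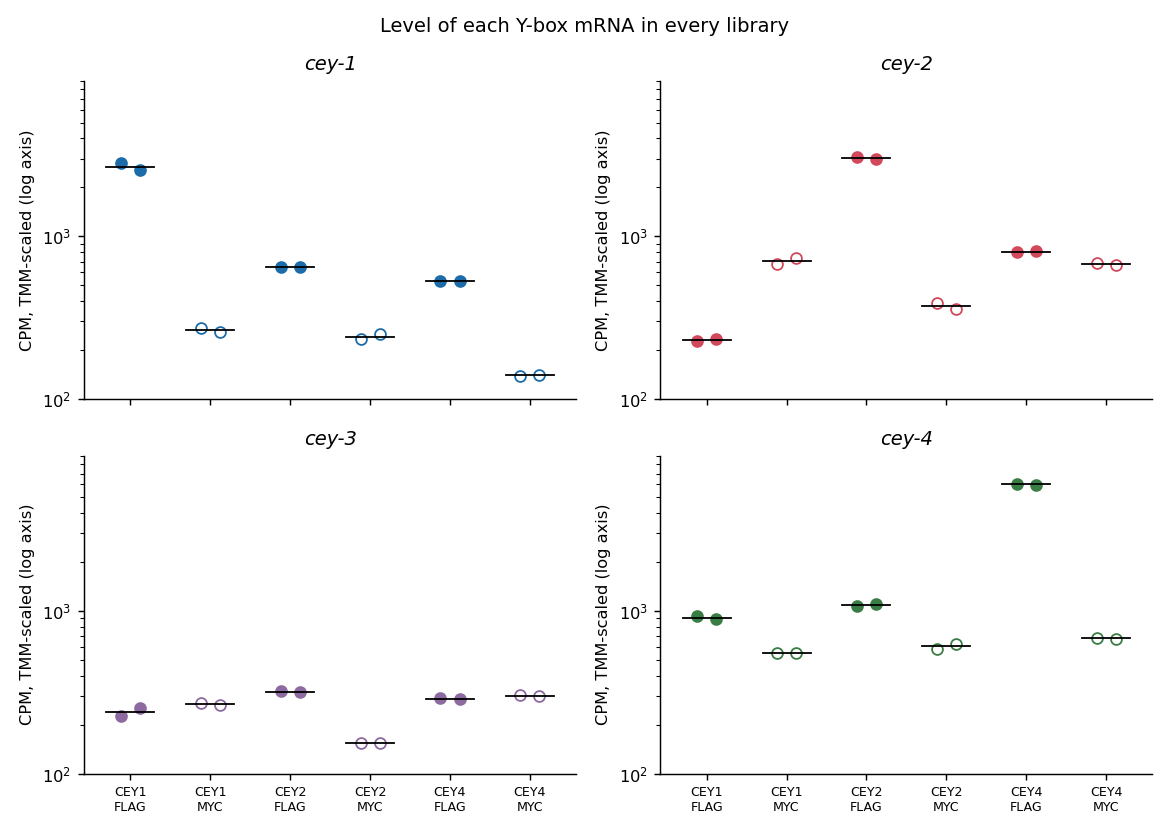
CPM after TMM scaling (log y axis) of the 4 Y-box mRNAs in every library, by strain and antibody. Filled points are FLAG libraries, open points MYC libraries and bars the mean of 2; on this scale cey-3 stays between 154 and 320 CPM, while each tagged gene peaks in the FLAG libraries of its own strain.

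Against all genes, the tagged member was far up the list of enrichments in its own strain. The untagged members lay lower, from above 23.2% to above 94.1% of genes. With edgeR's quasi-likelihood test, 4 of 4 members were called in CEY1 (2 higher, 2 lower), where 66.7% of the 15194 genes tested were called. By direction, 32.3% of genes were called higher there and 34.4% lower. In CEY2, 4 of 4 were called, all higher, against 69% of genes called in either direction, 34.9% higher and 34.1% lower. In CEY4, 3 of 4 were called, all higher, against 68.5% in either direction, 31.5% higher and 37% lower. Of all calls, 48.5% were higher in CEY1, 50.6% in CEY2 and 46% in CEY4, and with total-count scaling 13.2%, 15.6% and 10.4% were. Most genes were called in these comparisons, so the position of a member says more than its call. In CEY1, cey-1 lay above 98.8% of genes, cey-4 above 71.1%, cey-3 above 52.3% and cey-2 above 23.2%. In CEY2, cey-2 lay above 97.7%, cey-1 above 77.1%, cey-3 above 71.5% and cey-4 above 68.9%. In CEY4, cey-4 lay above 99.7%, cey-1 above 94.1%, cey-2 above 64.7% and cey-3 above 57.1%. The own-tag folds were 10.1 (cey-1), 8.09 (cey-2) and 8.81 (cey-4), or 3.34, 3.02 and 3.14 on the log2 scale. With total-count scaling these log2 values were smaller, at 1.85, 1.29 and 1.72. The median log2 fold change of the members was 0.28 in CEY1, 1.23 in CEY2 and 1.08 in CEY4, beside −0.26, −0.41 and −0.35 over all genes.

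**Figure D4:**
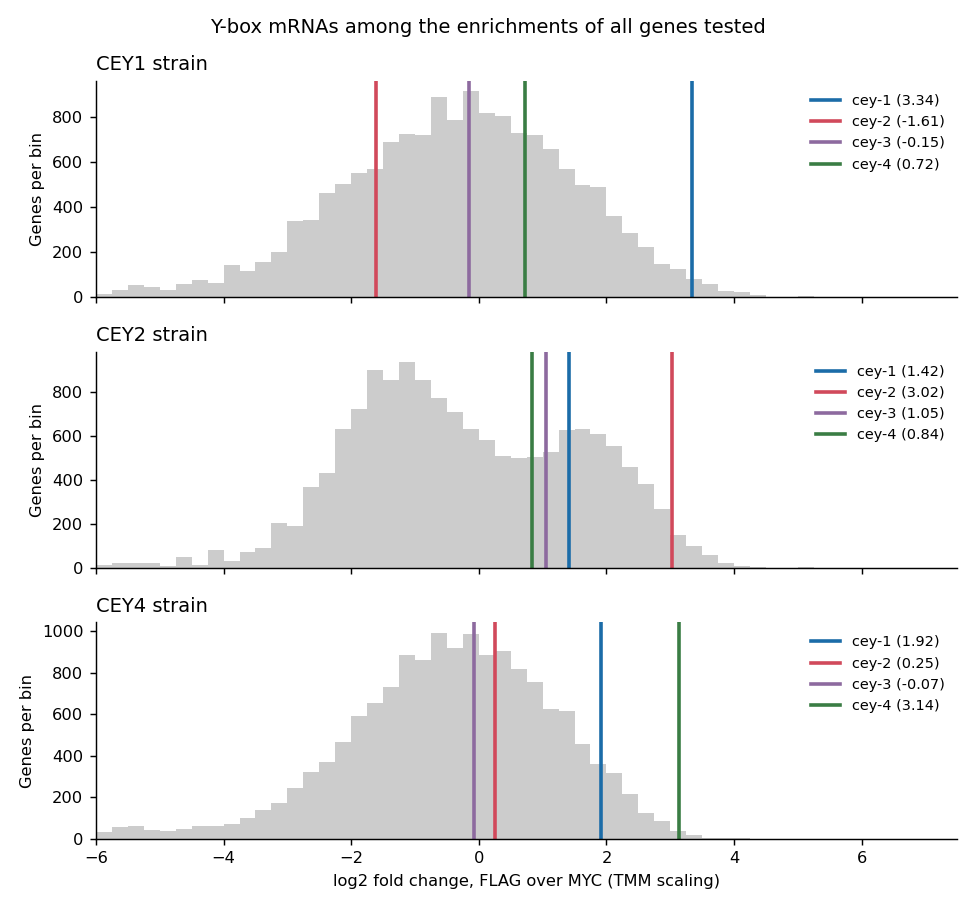
Number of genes (y axis) per bin of log2 fold change, FLAG over MYC with TMM scaling (x axis), for the 15194 genes tested in each strain, with lines at the 4 Y-box mRNAs. The tagged gene lies at 3.34 (cey-1, CEY1), 3.02 (cey-2, CEY2) and 3.14 (cey-4, CEY4), to the right of most genes.

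Differences of enrichment between strains were tested directly as an interaction, comparing strains pair by pair. For CEY1 minus CEY2, 3 of 4 members were called (1 higher, 2 lower), against 49.9% of all genes (18.4% higher, 31.4% lower). The difference was 1.92 ± 0.08 for cey-1, −4.63 ± 0.08 for cey-2 and −1.20 ± 0.09 for cey-3 (adjusted p = 5.23e-23, 2.09e-35 and 8.57e-16). For cey-4, tagged in neither strain, it was −0.12 ± 0.07 (interval −0.26 to 0.02, adjusted p = 0.154), but 0.12 with total-count scaling and 0.21 with median-ratio (RLE) size factors, and it was called without CEY1 MYC replicate 1 (−0.15). For CEY1 minus CEY4, 3 of 4 were called (1 higher, 2 lower), against 36.8% of all genes (18.1% higher, 18.6% lower). The difference was 1.42 ± 0.08 for cey-1, −1.86 ± 0.08 for cey-2, tagged in neither strain, and −2.42 ± 0.07 for cey-4 (adjusted p = 2.25e-18, 1.36e-22 and 9.18e-28). For cey-3 it was −0.08 ± 0.08 (interval −0.24 to 0.08, adjusted p = 0.498). For CEY2 minus CEY4, 4 of 4 were called (2 higher, 2 lower), against 47% of all genes (32.3% higher, 14.7% lower). The difference was −0.50 ± 0.08 for cey-1, tagged in neither strain, 2.77 ± 0.08 for cey-2, 1.12 ± 0.08 for cey-3 and −2.30 ± 0.07 for cey-4 (adjusted p = 1.05e-06, 8.83e-28, 5.75e-15 and 1.29e-26). Each tagged gene was thus enriched more in its own strain than in either other strain, and these 6 differences kept their sign and their call under every alternative tried. The 3 comparisons share libraries.

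Each tagged gene was also higher in the FLAG libraries of its own strain than in those of the other strains. Among FLAG libraries, cey-1 was 4.15-fold as high in CEY1 as in CEY2 (log2 2.05 ± 0.05) and 5.07-fold as high in CEY1 as in CEY4 (2.34 ± 0.06), with 0.29 ± 0.05 for CEY2 against CEY4. The cey-2 mRNA had log2 fold changes of −3.72 ± 0.06 for CEY1 against CEY2 and 1.92 ± 0.05 for CEY2 against CEY4, and −1.80 ± 0.06 for CEY1 against CEY4, where it was tagged in neither strain. The cey-4 mRNA had −2.72 ± 0.05 for CEY1 against CEY4 and −2.46 ± 0.05 for CEY2 against CEY4, but only −0.26 ± 0.05 for CEY1 against CEY2. For cey-3 the values were −0.41 ± 0.06 (CEY1 against CEY2), −0.26 ± 0.06 (CEY1 against CEY4) and 0.15 ± 0.06 (CEY2 against CEY4, adjusted p = 0.022). The last was not called after leaving out any 1 of the 4 CEY2 and CEY4 FLAG libraries, with values from 0.14 to 0.16. All 4 members were called in each FLAG comparison. For CEY1 against CEY2, 1 was higher and 3 lower, beside 61.1% of genes called (29.9% higher, 31.2% lower). For CEY1 against CEY4, 1 was higher and 3 lower, beside 49% (23.6% higher, 25.4% lower). For CEY2 against CEY4, 3 were higher and 1 lower, beside 54.9% (27.6% higher, 27.3% lower).

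The MYC controls also differed between strains, with a pattern of their own. The cey-1 mRNA was 1.90-fold as high in CEY1 MYC as in CEY4 MYC libraries (log2 0.92 ± 0.06) and 1.73-fold as high in CEY2 MYC as in CEY4 MYC libraries (0.79 ± 0.06). Its log2 fold change for CEY1 against CEY2 MYC was 0.13 ± 0.06 (adjusted p = 0.0572). That value was −0.32 with total-count scaling, and it was called after leaving out any 1 of 7 libraries (0.14 to 0.20), among them CEY1 MYC replicate 2 (0.18) and CEY2 MYC replicate 2 (0.20). The cey-2 and cey-3 mRNAs were lower in the CEY2 controls. The log2 fold change of CEY2 against CEY4 MYC was −0.85 ± 0.06 for cey-2 and −0.97 ± 0.06 for cey-3, and that of CEY1 against CEY2 MYC was 0.91 ± 0.06 for cey-2 and 0.79 ± 0.06 for cey-3. With total-count scaling these were −0.37, −0.49, 0.47 and 0.34 in the same order, all called, and the cey-1 value for CEY2 against CEY4 MYC was 1.27. Between CEY1 and CEY4 MYC libraries, cey-2 differed by 0.06 ± 0.05 (interval −0.04 to 0.17, adjusted p = 0.497, and −0.01 without CEY1 MYC replicate 2) and cey-3 by −0.18 ± 0.06. The cey-3 call there (adjusted p = 0.0303) was lost with total-count scaling (−0.15) and without CEY1 MYC replicate 2, either CEY4 MYC library, CEY2 FLAG replicate 2 or either CEY4 FLAG library. For cey-4 the MYC values were −0.14 ± 0.05 (CEY1 against CEY2), −0.31 ± 0.05 (CEY1 against CEY4) and −0.16 ± 0.05 (CEY2 against CEY4). The last was 0.32 with total-count scaling, and its call was lost without CEY2 MYC replicate 1. The first was −0.59 with total-count scaling (adjusted p = 3.66e-14), while on the TMM scale it was not called with no filter on low counts (−0.10), or without CEY2 FLAG replicate 2, CEY2 MYC replicate 2 or either CEY4 FLAG library. For CEY1 against CEY2, 2 members were called higher and 1 lower, beside 54.5% of all genes (39.7% higher, 14.8% lower). For CEY1 against CEY4, 1 was higher and 2 lower, beside 14.5% (6.19% higher, 8.35% lower). For CEY2 against CEY4, 1 was higher and 3 lower, beside 57.8% (15.4% higher, 42.4% lower). With total-count scaling the share of calls that were higher was 44.9% for CEY1 against CEY2, against 72.8% with TMM, and 55.2% for CEY2 against CEY4, against 26.6% with TMM.

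**Figure D5:**
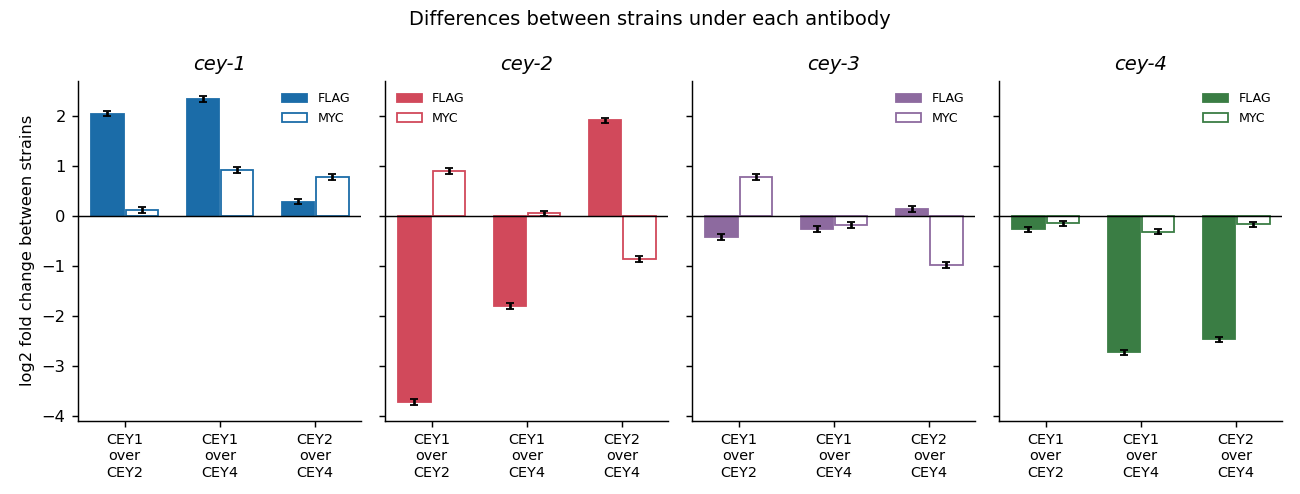
Log2 fold change between strains (y axis) of each Y-box mRNA, with FLAG libraries as filled and MYC libraries as open bars and error bars of 1 SE. For cey-2 and cey-3 the FLAG and MYC bars point opposite ways between CEY1 and CEY2 and between CEY2 and CEY4, as for cey-2 at −3.72 (FLAG) and 0.91 (MYC).

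Markers of several tissues differed between the same MYC libraries. The 12 germline markers include the helicase gene glh-1, the P-granule gene pgl-1 and the yolk receptor gene rme-2. All 12 were called lower in CEY2 than in CEY4 MYC libraries, as cey-2 and cey-3 were, beside 42.4% of all genes. All 12 were called higher in CEY1 than in CEY2 MYC libraries, beside 39.7% of all genes. Their summed level was 3800 to 3920 CPM in CEY2 MYC libraries, 5730 to 6360 CPM in CEY1 MYC libraries and 6270 to 6310 CPM in CEY4 MYC libraries. With total-count scaling 9 of the 12 were called lower in CEY2 than in CEY4, beside 22.4% of all genes, and 10 were called higher in CEY1 than in CEY2, beside 22.2% of all genes. For CEY2 against CEY4 MYC, the calls among all genes were 15.4% higher and 42.4% lower. Neuronal markers went the other way from germline markers (6 of 8 higher, 0 lower), and of the adult cuticle markers 5 of 7 were higher and 2 lower. Scaling by total counts gave 7 higher calls and 0 lower calls for neuronal markers, and 5 and 2 for cuticle markers. The shares of all genes on that scale were 27.6% (higher) and 22.4% (lower). Of the intestine markers 1 of 9 was higher and 7 lower, and of the body wall muscle markers 2 of 8 were higher and 5 lower, but with total-count scaling these were 4 higher and 3 lower, and 6 higher and 1 lower. In the FLAG libraries the germline sum was 25000 to 25500 CPM in CEY1, 35200 to 35800 CPM in CEY2 and 24800 CPM in both CEY4 libraries. Summed body wall muscle markers (8 genes) stood at 15100 to 15200 CPM in CEY1 FLAG, 3070 to 3100 CPM in CEY2 FLAG and 12800 to 13100 CPM in CEY4 FLAG libraries, against 3780 to 4590 CPM in MYC libraries. Intestine markers (9 genes) stood at 72700 to 76800, 25400 to 26200 and 105000 to 108000 CPM in the FLAG libraries of CEY1, CEY2 and CEY4, against 14900 to 17900 CPM in MYC libraries. Adult cuticle markers (7 genes) stood at 4700 to 5160, 759 to 778 and 1580 CPM, against 2320 to 2600 CPM in MYC libraries, and neuronal markers (8 genes, unc-119 among them) at 231 to 240, 125 and 220 to 228 CPM, against 101 to 144 CPM in MYC libraries. These sums are on the TMM scale, and some orders turn round in CPM without it. Neuronal markers then stood at 127 to 134, 79.6 to 79.9 and 126 to 129 CPM in CEY1, CEY2 and CEY4 FLAG libraries, against 152 to 307 CPM in MYC libraries. Cuticle markers in CEY1 then stood at 2620 to 2820 CPM in FLAG libraries, against 3580 to 3930 CPM in MYC libraries, and intestine markers in CEY2 at 16200 to 16800 CPM in FLAG libraries, against 31300 to 31700 CPM in MYC libraries. No marker was at 0 counts in any library, but in libraries of this size that alone cannot show that each of the 5 tissues gave RNA. The label states whole animals. The part of tissue composition in the cey values was not tested.

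Over the 3 strains together, cey-1 and cey-4 were called higher with FLAG and cey-2 and cey-3 were not called (2 of 4 members, beside 66.7% of genes called, 28.5% higher and 38.3% lower). The log2 fold change was 2.22 ± 0.25 for cey-1 and 1.53 ± 0.33 for cey-4, with adjusted p of 2.23e-06 and 0.000823. It was 0.49 ± 0.57 for cey-2 (interval −0.64 to 1.61, adjusted p = 0.461, and 0 without CEY2 MYC replicate 2) and 0.27 ± 0.18 for cey-3 (−0.09 to 0.63, adjusted p = 0.203). With total-count scaling only the cey-1 value stayed positive, at 0.67, while cey-4 was at −0.02, cey-2 at −1.03 and cey-3 at −1.27. This fit takes 1 FLAG effect for all strains, although each strain tags a different protein. The values of cey-1, cey-2 and cey-4 thus include the strain that tags the gene. On the TMM scale CEY1, CEY2 and CEY4 alone gave 0.72, 0.84 and 3.14 for cey-4, and −1.61, 3.02 and 0.25 for cey-2.

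The genes that the transgenes borrow parts from were read mainly as levels. All transgenes carry the tbb-2 3' UTR and the unc-119(+) marker, so counts of tbb-2 and unc-119 may include transgene reads. The reporter's 3' UTR comes from tbb-2, a beta-tubulin gene, which averaged 3961 ± 33.4 CPM in CEY1 FLAG, 1746 ± 40.4 CPM in CEY2 FLAG and 1591 ± 19.9 CPM in CEY4 FLAG libraries, against 1207 ± 3.72, 807 ± 30.1 and 1261 ± 0.429 CPM in CEY1, CEY2 and CEY4 MYC libraries (SD, n = 2 each). The chromatin gene dpy-30, whose promoter drives the CEY4 transgene, averaged 13.8 ± 0.592, 32.7 ± 0.944 and 17.0 ± 1.32 CPM in CEY1, CEY2 and CEY4 FLAG libraries, against 22.6 ± 9.77, 17.0 ± 2.37 and 19.9 ± 0.876 CPM in the MYC libraries in the same strain order. The marker unc-119 had few counts: 49 and 48 in CEY1 FLAG, 54 and 47 in CEY2 FLAG and 9 and 11 in CEY4 FLAG libraries. MYC libraries held 12 to 39 counts of it. In the edgeR test unc-119 was called lower with FLAG in CEY4 (log2 −1.78 ± 0.38, adjusted p = 7.72e-05). It was not called in CEY1 (0.65 ± 0.33) or CEY2 (0.53 ± 0.36). Without TMM scaling its CPM was lower with FLAG in every strain. For lin-28, another cold-shock-domain gene and a regulator of developmental timing, the means in the same order were 39.8 ± 0.761, 53.0 ± 1.08 and 28.0 ± 2.63 CPM in FLAG libraries, against 25.6 ± 1.95, 23.2 ± 5.71 and 23.8 ± 4.74 CPM in MYC libraries. On this scale tbb-2 was highest in CEY1 FLAG libraries, and dpy-30 and lin-28 in CEY2 FLAG libraries. Without TMM scaling the order of dpy-30 and lin-28 differed: dpy-30 had 21.3 and 20.5 CPM in CEY2 FLAG and 32.2 and 39.7 CPM in CEY2 MYC libraries, and lin-28 had 34.3 and 33.4 CPM in CEY2 FLAG and 57.4 and 40.9 CPM in CEY2 MYC libraries. In CEY4, whose transgene uses the dpy-30 promoter, dpy-30 was not called between FLAG and MYC libraries on the TMM scale (log2 −0.22, interval −0.51 to 0.06, adjusted p = 0.162). Without TMM scaling it had 9.2 and 10.2 CPM in CEY4 FLAG libraries, against 29.1 and 31.3 CPM in CEY4 MYC libraries. Unscaled tbb-2 was lower with FLAG in CEY2 (1095 and 1135 against 1745 and 1673 CPM) and CEY4 (900 and 908 against 1898 and 1922 CPM). In CEY1, unscaled tbb-2 stayed higher with FLAG (2156 and 2221 against 1838 and 1905 CPM).

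Among the mRNAs of proteins that share mRNA particles or act in translation, a list of 16 germline and oocyte particle proteins and a list of 16 cap-binding and initiation factors were read from the same test. In CEY1, 15 of 16 particle genes were called higher and 1 lower, beside 32.3% and 34.4% of all genes, with a median log2 fold change of 2.66. The ataxin-2 gene atx-2 (3.65 ± 0.06) and rnp-8 (3.36 ± 0.07), which encodes a partner of the GLD-2 poly(A) polymerase, led the list, and the zinc-finger gene pos-1 was the lower one (−1.03 ± 0.06). In CEY2, 16 of 16 were higher, beside 34.9% of genes, with a median of 2.39, led by the KH-domain gene mex-3 (3.32 ± 0.08) and rnp-8 (3.09 ± 0.07). In CEY4, 14 were higher and 1 lower, beside 31.5% and 37% of genes, with a median of 1.5, atx-2 at 2.99 ± 0.06, the poly(A)-binding protein gene pab-1 at 2.39 ± 0.05 and pos-1 at −0.69 ± 0.06. With total-count scaling the particle genes called higher were 11, 12 and 7, beside 10.8%, 13.2% and 9.25% of all genes. Those called lower were then 5, 3 and 6, beside 71.4%, 71.7% and 79.7% of all genes. The medians of the particle list were then 1.17, 0.66 and 0.09, beside −1.75, −2.12 and −1.75 over all genes.

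Of the initiation list, 15 of 16 genes were tested. In CEY1, 7 were called higher and 8 lower (median −0.38), beside 32.3% and 34.4% of all genes and a median of −0.26 over them, from the second poly(A)-binding gene pab-2 (2.52 ± 0.06) and the eIF4G gene ifg-1 (2.30 ± 0.05) down to the eIF4E genes ife-1 (−2.09 ± 0.08) and ife-2 (−2.31 ± 0.22). In CEY2, 12 were higher and 1 lower (median 0.83), beside 34.9% and 34.1% of genes (median −0.41), with ifg-1 at 2.30 ± 0.06, the eIF3 subunit gene eif-3.C at 1.54 ± 0.05 and ife-2 at −0.64 ± 0.19. The eif-3.C value was −0.19 with total-count scaling, and the ife-2 call was lost without CEY2 FLAG or MYC replicate 2. In CEY4, 5 were higher and 6 lower (median −0.15), beside 31.5% and 37% of genes (median −0.35), with ifg-1 at 2.12 ± 0.05, pab-2 at 2.02 ± 0.06, ife-3 at −0.68 ± 0.06 and eif-6 at −0.82 ± 0.11. With total-count scaling those called higher were 3, 1 and 2, and those lower 12, 14 and 13, on a scale where 71.4%, 71.7% and 79.7% of all genes were called lower. The germline marker and particle lists share 3 genes (oma-1, gld-1 and puf-5).

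For each member, the 3 genes most like it over the 12 libraries, by Pearson's r of log2 CPM among 7316 genes with a symbol and a mean of at least 10 CPM in a group, are named here. The measure is a description, since the libraries fall into FLAG and MYC groups. The genes were picked on these same libraries, so that they share a member's highest or lowest groups follows from the choice. Levels here are on the TMM scale. Without it, cey-3 was lowest in CEY1 FLAG libraries (125 and 141 CPM), not in CEY2 MYC libraries (326 and 328 CPM). Nearest to cey-1 were the transcription cofactor gene mab-10 (r = 0.989), attf-4 (0.981) and F58D5.5 (0.979), all highest in CEY1 FLAG libraries, where mab-10 averaged 149 ± 0.14 CPM, against 16.4 ± 1.71 CPM in CEY1 MYC libraries. Nearest to cey-2 were the hexokinase gene hxk-1 (0.993), C02F5.13 (0.988) and the glycogen synthase gene gsy-1 (0.987), all highest in CEY2 FLAG and lowest in CEY1 FLAG libraries. The hxk-1 mRNA averaged 641 ± 15.1 CPM in CEY2 FLAG and 130 ± 3.45 CPM in CEY1 FLAG libraries, against 170 ± 1.79 CPM in CEY2 MYC and 247 ± 12.6 CPM in CEY1 MYC libraries. Nearest to cey-3 were cdc-37, which encodes an Hsp90 cochaperone (0.991), zhp-1, a meiotic zinc-finger gene (0.982), and the glutamine synthetase gene gln-5 (0.975), all lowest in CEY2 MYC libraries. Nearest to cey-4 were the exocyst gene sec-15 (0.983), C23H4.6 (0.961) and the ryanodine receptor gene unc-68 (0.954), all highest in CEY4 FLAG libraries, where unc-68 averaged 1120 ± 20.7 CPM, against 248 ± 8.02 CPM in CEY4 MYC libraries. None of these genes is part of a transgene named in the labels. On the authors' deposited log2 values, which are scaled to a common total, 2 of 3 genes stayed among the 3 nearest to cey-1, 1 of 3 for cey-4 and 0 of 3 for cey-2 and for cey-3. For cey-3, zhp-1 then ranked 3156 (r = 0.748), cdc-37 423 (0.963) and gln-5 8 (0.994). The worst rank among the genes named was 4 for cey-1, 208 for cey-2 and 85 for cey-4.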

How the data were processed

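Whole young adults were frozen, FLAG and MYC IPs were made, and RNA was taken off the beads in Trizol before ScriptSeq v2 library preparation, per the labels' protocols. The authors deposited raw counts per gene and log2 values. The deposited log2 values are counts scaled to a common total plus 8, on a log2 scale: undoing this gave the raw counts for 100% of values (within 1 count or 1%). No aligner, build or counter is given in the sources used here. Symbols were matched by identifier for 18778 of 20182 genes. Since the labels name no separate cultures for replicates, p-values cover the spread between these libraries, which may be technical.

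The analysis used R (4.3.3) and edgeR (4.0.16). The filterByExpr function (minimum count 10) kept 15194 genes. TMM factors ran from 0.548 to 0.64 in FLAG and 1.51 to 2.13 in MYC libraries. All 12 libraries entered a fit with 1 mean per group, and the comparison over the 3 strains had strain and antibody as terms. Quasi-likelihood tests (two-sided) were adjusted over all genes by Benjamini-Hochberg and called at 0.05. The SE is the fold change over the root of F, and intervals are 95%. The members, lists and tests were chosen with earlier results of these data known. The genes named are the 4 members, the 3 most correlated with each, the transgene part genes and lin-28, and the 2 most changed called genes per direction of the particle and initiation lists. Germline, muscle, intestine, cuticle and neuron markers were summed per library. Alternatives were total-count and RLE scaling, DESeq2 1.42.0, limma 3.58.1 on the deposited log2 values, no filter, replicate blocks, the 4 libraries of a strain alone, and leaving out each library. The model code was tested on simulated data.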

Additional observations from a re-analysis of the deposited data

Results flagged for a closer look

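Differences between strains in the enrichment of a Y-box mRNA, tested as an interaction with edgeR, passed an adjusted p of 0.05 in 10 of the 12 combinations of gene and strain pair. Of all genes tested, 49.9% passed for CEY1 minus CEY2, 36.8% for CEY1 minus CEY4 and 47% for CEY2 minus CEY4. For CEY1 minus CEY2 the members that passed were cey-1 (1.92), cey-2 (−4.63) and cey-3 (−1.20). For CEY1 minus CEY4 they were cey-1 (1.42), cey-2 (−1.86) and cey-4 (−2.42). For CEY2 minus CEY4 they were cey-1 (−0.50), cey-2 (2.77), cey-3 (1.12) and cey-4 (−2.30). Of these 10, 6 involve the strain that tags the gene, and 4 do not: cey-3 (−1.20 and 1.12), cey-2 between CEY1 and CEY4 (−1.86) and cey-1 between CEY2 and CEY4 (−0.50). For cey-3, the log2 fold change of CEY1 against CEY2 was −0.41 in FLAG and 0.79 in MYC libraries, and that of CEY2 against CEY4 was 0.15 in FLAG and −0.97 in MYC libraries.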

How the results depend on the processing

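The own-tag enrichments (cey-1 in CEY1, cey-2 in CEY2, cey-4 in CEY4) and the 6 differences of enrichment that involve them kept direction and call under every alternative run, but the enrichments were smaller with total-count scaling and with limma, at 1.85 (cey-1), 1.29 (cey-2) and 1.72 (cey-4) in both, and cey-2 in CEY2 was 2.68 with RLE and DESeq2. For cey-3 in CEY1, total-count scaling and limma gave −1.64 and −1.63. Total-count scaling and limma on the deposited log2 values, which share a scale, turned other FLAG against MYC values round: cey-4 in CEY1 (−0.77 in both), cey-1 in CEY2 (−0.31 in both), cey-3 in CEY2 (−0.68 in both), cey-4 in CEY2 (−0.89 and −0.88), cey-2 in CEY4 (−1.17 and −1.16) and eif-3.C in CEY2 (−0.19 in both). The same settings gave −1.03 and −0.99 for cey-2, −1.27 and −1.26 for cey-3, and −0.02 and 0.03 for cey-4 over the 3 strains. They called cey-3 in CEY4 (−1.49 and −1.48), as did the 4 CEY4 libraries alone (−0.09). Without the filter, cey-3 in CEY1 (−0.12) was not called. For cey-4, CEY1 minus CEY2 was 0.12 with both total-count scaling and limma, 0.21 with both RLE and DESeq2, and called without the filter (−0.17). In MYC libraries, cey-1 for CEY1 against CEY2 was −0.32 (total count), −0.31 (limma) and −0.22 (RLE and DESeq2), and was called without the filter (0.18), while cey-4 was not called (−0.10). For CEY2 against CEY4, cey-4 was 0.32 (total count and limma) and 0.19 (RLE and DESeq2). For CEY1 against CEY4, cey-3 was not called with total-count scaling or limma (−0.15). The cause was not tested. Genes called higher were 1647, 2013 and 1405 (CEY1, CEY2, CEY4) with total-count scaling and 1635, 2049 and 1350 with limma, and those lower 10849, 10892 and 12112, or 10093, 10558 and 10834. For CEY1 against CEY4 MYC, 2208 genes were called, 1341 with DESeq2 and 1467 without CEY1 MYC replicate 2 (1467 to 2368 over the libraries left out). Leaving out 1 library at a time, where the lone sample of a group is taken to vary like the others, gave ranges of −0.23 to −0.07 for cey-3 in CEY1, −0.18 to −0.10 for cey-4 in CEY1 minus CEY2, and 0.14 to 0.16 for cey-3 between CEY2 and CEY4 FLAG. In MYC libraries they were 0.09 to 0.20 (cey-1) and −0.17 to −0.09 (cey-4) for CEY1 against CEY2, −0.01 to 0.13 (cey-2) and −0.20 to −0.16 (cey-3) for CEY1 against CEY4, and −0.21 to −0.13 (cey-4) for CEY2 against CEY4. For cey-2 over the 3 strains the range was 0 to 0.95, and the call of ife-2 in CEY2 was lost at −0.48 and −0.51. No pairing of libraries by replicate number was seen: deviations of same-numbered FLAG and MYC libraries correlated at −0.002 (CEY1), −0.026 (CEY2) and −0.003 (CEY4) across 15194 genes. All genes weigh alike in this measure, those of low counts included, so it cannot exclude a pairing. A replicate block left every direction and call of the cey genes as it was, with 10056, 10429 and 10336 genes called in CEY1, CEY2 and CEY4.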
